A study of Mus musculus with 6 samples.

Results

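The genes of cholesterol synthesis and uptake were examined in single cells of mouse intestinal organoids. The 29 genes were taken from a fixed list by symbol, and all 29 were found among the 55335 genes of the files. They fall into 8 genes of the mevalonate and isoprenoid steps, 12 of the squalene and sterol steps, 4 of sterol sensing, and 5 of uptake, transfer and esterification. The list does not hold every gene of the pathway.

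Organoids of this kind are small epithelial structures that form in gel from single gut cells. Per the labels, the cells came from C57BL/6 wild-type mice 8 weeks old, and the study's design names 2 mice, each in duplicate, without saying how they were spread over the libraries. All groups were grown in medium with EGF, Noggin and R-spondin. Until day 3 it also held Wnt3a-conditioned medium, the kinase inhibitor Y-27632 and the GSK3 inhibitor CHIR99021, so that at day 1 and day 4 the cells were in different media. At day 4, 96 hours after the start of treatment, 1 library each was made from organoids given DMSO as vehicle, 5 µM of a compound that blocks the retinoid X receptors (RXR), all-trans retinoic acid (atRA) at 10 µM, or medium free of vitamin A. The labels write the dose unit as "μm", read here as micromolar, and do not say whether the vitamin A-free culture also received vehicle. Vehicle organoids at day 1, after 24 hours, gave 2 libraries. Treatments were repeated at day 3.

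Cholesterol is built from acetyl-CoA through mevalonate, the isoprenoid diphosphates, squalene and a series of sterols. The genes of the pathway are turned on by the transcription factor SREBP2, which the escort protein Scap carries to the Golgi for release when membranes are poor in sterol, and which the Insig proteins hold back in the endoplasmic reticulum when sterol is plentiful. Enterocytes, the absorptive cells of the gut, also take cholesterol from the lumen through the Npc1l1 protein, esterify it with the product of Soat2 and pack it into lipoproteins. RXR proteins are nuclear receptors that pair with the retinoic acid receptors and with sterol, bile acid and fatty acid receptors.

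The 6 libraries kept 3468 to 5327 cells and 47258161 to 62567817 UMIs (unique molecular identifiers, each marking 1 captured RNA molecule), with medians of 9968 to 13365.5 UMIs per cell. Pairs of libraries shared 2 to 17 cell barcodes. The day-1 libraries shared 9, and over 11423 genes their counts differed by a chi-square of 84.4 per degree of freedom, so they were not copies of 1 library and were counted as 2 samples. This does not tell whether they came from separate cultures. Levels are given as CPM, the UMIs of a gene summed over all cells of a library and scaled to the same CPM total in every library. Markers of immune, stromal, vessel and blood cells summed to 1.10 to 1.53 CPM in every library, with 2 to 4 of the 6 markers at 0.

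The start regions of the genes were read first, because SREBP2 acts there beside the factor that binds the CCAAT box. RefSeq windows of the GRCm38.p6 build were found for 23 of the 29 genes, as 29 windows, and the 250 bases before each start were searched on both strands. The 6 windows below are shown because Hmgcs1 alone held the sterol element, Mvd, Idi1 and Insig1 had some of the largest differences, and the starts of Insig2 differed in their motifs: Hmgcs1 (chr13:119690101-119690350, plus strand), Insig1 (chr5:28071162-28071411, plus strand), Mvd (chr8:122443423-122443672, minus strand), Idi1 (chr13:8885356-8885605, plus strand) and a pair of Insig2 starts (chr1:121328025-121328274 and chr1:121332590-121332839, minus strand). They are written 5′ to 3′ on the gene's strand, with matches to the motifs named after them in capitals.
Hmgcs1: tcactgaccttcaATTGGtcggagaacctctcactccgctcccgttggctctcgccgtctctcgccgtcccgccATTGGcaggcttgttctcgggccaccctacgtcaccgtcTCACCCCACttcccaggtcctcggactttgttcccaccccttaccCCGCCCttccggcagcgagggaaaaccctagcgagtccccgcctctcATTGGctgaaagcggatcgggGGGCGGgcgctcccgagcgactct
Insig1: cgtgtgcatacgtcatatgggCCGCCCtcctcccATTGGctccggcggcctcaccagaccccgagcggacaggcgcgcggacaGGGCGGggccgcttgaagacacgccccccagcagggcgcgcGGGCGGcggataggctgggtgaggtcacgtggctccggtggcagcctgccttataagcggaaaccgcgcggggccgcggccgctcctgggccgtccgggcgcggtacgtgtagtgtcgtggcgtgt
Mvd: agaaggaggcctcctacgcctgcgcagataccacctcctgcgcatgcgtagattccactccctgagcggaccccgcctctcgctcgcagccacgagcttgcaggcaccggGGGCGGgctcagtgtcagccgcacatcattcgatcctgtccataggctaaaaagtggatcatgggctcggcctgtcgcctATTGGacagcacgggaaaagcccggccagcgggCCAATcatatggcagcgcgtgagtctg
Idi1: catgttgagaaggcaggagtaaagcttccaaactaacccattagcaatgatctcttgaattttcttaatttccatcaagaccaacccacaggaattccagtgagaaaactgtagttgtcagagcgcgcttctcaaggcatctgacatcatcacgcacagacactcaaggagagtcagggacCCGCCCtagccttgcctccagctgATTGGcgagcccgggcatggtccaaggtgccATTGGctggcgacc
Insig2, chr1:121328025-121328274: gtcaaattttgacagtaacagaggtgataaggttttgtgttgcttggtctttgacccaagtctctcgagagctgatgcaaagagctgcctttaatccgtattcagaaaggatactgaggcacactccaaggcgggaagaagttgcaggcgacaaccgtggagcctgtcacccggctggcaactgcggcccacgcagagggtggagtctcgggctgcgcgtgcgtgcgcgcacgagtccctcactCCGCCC
Insig2, chr1:121332590-121332839: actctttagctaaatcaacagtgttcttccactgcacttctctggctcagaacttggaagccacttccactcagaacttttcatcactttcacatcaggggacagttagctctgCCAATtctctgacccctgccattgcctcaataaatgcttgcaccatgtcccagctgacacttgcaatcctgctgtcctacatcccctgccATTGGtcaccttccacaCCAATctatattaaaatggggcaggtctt
The capitals mark 3 motifs in either direction. These are TCACNCCAC, a form of the core that SREBP proteins bind, CCAAT, the CCAAT box, and GGGCGG, the GC box, and matches may overlap. A CCAAT box stood in 21 of the 23 genes (91.3%), and in 37.5% of the 27025 genes with a window. The GC box was found in 20 of the 23 (87%), against 35.4% of all genes. This form of the sterol element core was found in 1 of the 23, Hmgcs1, against 1.22% of all genes. Other forms of the element were not searched for. Of the Insig2 windows shown, 1 held the CCAAT box 3 times and the other held none. The shares of all genes were not limited to genes detected in these cells, and a gene counted if any of its windows matched. These matches describe letters only, and the UMI counts do not tell which start of Insig2 was used. The bases just after the start were found in a transcript of the same gene for 24 of the 29 windows, though not for the Hmgcs1 window.

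Across the 6 libraries the enzymes were lowest at day 1. The 20 enzyme genes of synthesis summed to 4725 CPM in the day-4 vehicle, 4758 with the RXR antagonist, 4316 in vitamin A-free medium, 2852 with retinoic acid, and 1858 and 1655 in the day-1 libraries. At equal totals the day-4 libraries without retinoic acid lay highest, retinoic acid in between, and day 1 lowest. With edgeR's TMM factors, which scale the libraries by most genes in place of the totals, the sums with retinoic acid and in vitamin A-free medium came together (3818 and 3982), as they did with DESeq2's size factors (3928 and 3912), while day 1 stayed lowest (1680 and 1464 with TMM). These are sums over all cells of a library, in which fewer cells of a type and less RNA per cell cannot be told apart. At equal totals the 8 mevalonate and isoprenoid genes had the same order, with 2049, 2123 and 1925 CPM in the vehicle, antagonist and vitamin A-free libraries, 1218 with retinoic acid and 739.6 and 657 at day 1.

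**Figure D1:**
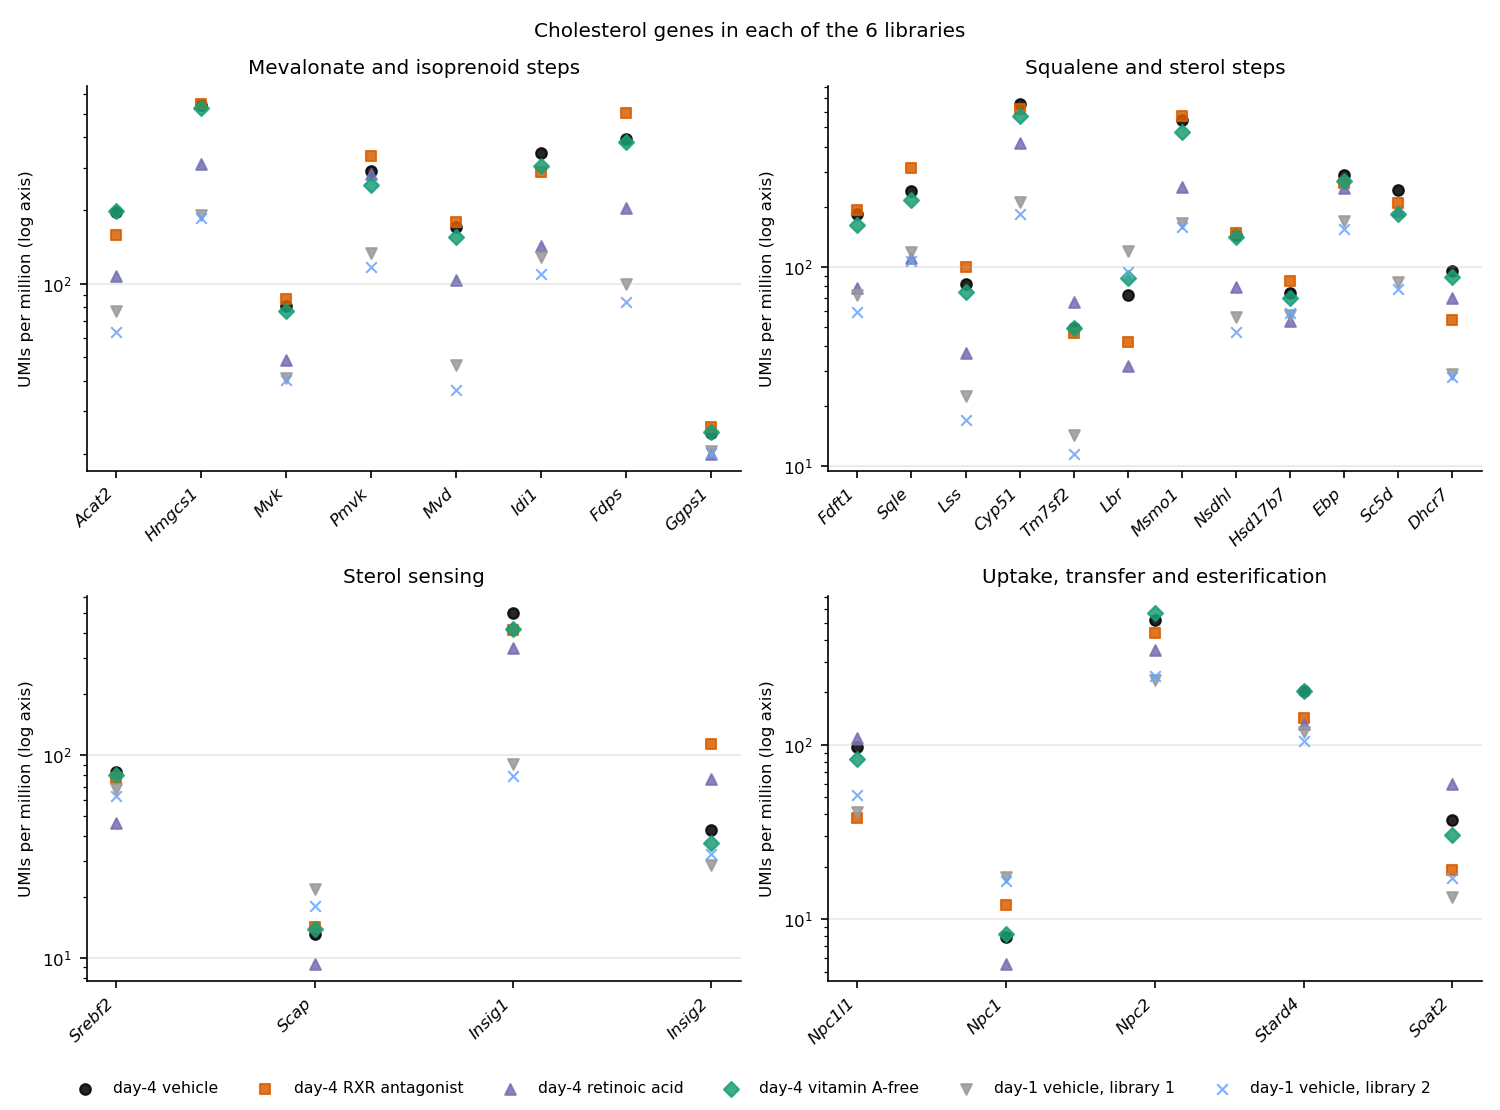
Level of each of the 29 genes in each of the 6 libraries, as CPM on a log axis, in 4 panels by role. Each symbol is 1 library, with no error bar. At these equal totals both day-1 libraries lie lowest for most enzymes and retinoic acid lies between them and the other day-4 libraries, while Lbr, Scap and Npc1 are highest in the day-1 libraries.

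Among the mevalonate and isoprenoid genes, Acat2, whose enzyme joins acetyl-CoA units, stood at 198 CPM in the day-4 vehicle, 159 with the antagonist, 108 with retinoic acid and 199 in vitamin A-free medium, and at 77.0 and 63.5 CPM in day-1 libraries 1 and 2. Pmvk, the phosphomevalonate kinase, had 291 CPM in the vehicle, 334 with the antagonist, 281 with retinoic acid and 255 in vitamin A-free medium, and 134 and 117 at day 1. For Acat2 the retinoic acid library lay below the other day-4 libraries, also with TMM and DESeq2 factors. For Pmvk it lay inside their range at equal totals and above them with those factors (377 with TMM, against 235 to 352). Mvd makes isopentenyl diphosphate, the isoprenoid unit, and was at 171, 179, 104 and 156 CPM in the vehicle, antagonist, retinoic acid and vitamin A-free libraries and at 46.4 and 36.5 at day 1. Idi1, which turns that unit into its reactive isomer, was at 344, 286, 143 and 306 CPM in the same order, against 129 and 109.6 at day 1. So the retinoic acid value of Idi1 was nearer to the day-1 values than to those of the other day-4 libraries. Fdps, the farnesyl diphosphate synthase, reached 395 CPM in the vehicle, 502 with the antagonist, 204 with retinoic acid and 383 in vitamin A-free medium, and 100.1 and 84.5 at day 1. Hmgcs1, the gene of a synthase upstream of mevalonate, and the mevalonate kinase gene Mvk had the same order of libraries. Ggps1, which makes the isoprenoid used to anchor small GTPases, varied least, from 20.0 to 25.9 CPM over the 6 libraries.

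In the squalene and sterol steps, Fdft1, the squalene synthase, was at 184 CPM in the vehicle, 192 with the antagonist, 78.7 with retinoic acid and 162 in vitamin A-free medium, and at 72.2 and 59.1 at day 1. Sqle, the squalene epoxidase, had 241, 312, 110.2 and 217 CPM in these day-4 libraries and 118 and 107 at day 1. At equal totals the retinoic acid library thus lay between the day-1 libraries for Sqle and just above them for Fdft1. With TMM factors it lay further above day 1, at 147 for Sqle against 107 and 94.7, and at 105 for Fdft1 against 65.3 and 52.3. Lss closes the sterol rings and was at 81.7, 99.3, 37.2 and 74.5 CPM at day 4 and at 22.5 and 17.1 at day 1. Cyp51, the lanosterol demethylase, was at 659, 615, 417 and 573 CPM and at 211 and 185 at day 1. Msmo1, which oxidises the methyl groups that are then removed, had 546, 570.5, 252 and 475 CPM and 165 and 158 at day 1. For Lss and Msmo1 retinoic acid lay between day 1 and the other day-4 libraries under each scaling. For Cyp51 this held at equal totals, and with TMM factors retinoic acid was at 558 and vitamin A-free medium at 528.

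Tm7sf2 and Lbr both encode a sterol reductase of the same step, and Lbr is also the lamin B receptor of the nuclear envelope. Tm7sf2 was at 49.3 CPM in the vehicle, 46.8 with the antagonist, 66.8 with retinoic acid and 49.1 in vitamin A-free medium, and at 14.3 and 11.6 at day 1. Lbr went the other way, with 71.9, 42.0, 31.9 and 87.7 CPM at day 4 and 120.3 and 93.9 at day 1. Retinoic acid gave the highest Tm7sf2 and the lowest Lbr of all libraries, and day 1 the lowest Tm7sf2 and the highest Lbr. Sc5d, the lathosterol desaturase, had 242, 208, 189.8 and 184 CPM at day 4 and 83.6 and 77.4 at day 1. Dhcr7, which makes cholesterol from its direct precursor, had 95.3, 54.0, 69.7 and 89.0 CPM and 28.9 and 28.1 at day 1, so that here the antagonist library was the lowest of day 4. Nsdhl and Hsd17b7, which act with Msmo1, and the sterol isomerase gene Ebp were all lower at day 1 than in the day-4 vehicle.

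The sensing genes were not one block. Insig1, itself a classical SREBP2 target, was at 500.2 CPM in the vehicle, 413 with the antagonist, 338 with retinoic acid and 420.2 in vitamin A-free medium, and at 90.4 and 79.1 at day 1. Its relative Insig2 was at 42.6, 114, 76.6 and 37.1 CPM at day 4 and at 28.7 and 32.8 at day 1. Insig2 was therefore highest with the antagonist, where Insig1 was not. Srebf2, the gene of SREBP2, was at 82.6, 77.6, 46.6 and 79.8 CPM at day 4 and at 68.1 and 62.9 at day 1. Retinoic acid was below every other library at equal totals, but with TMM factors it was at 62.4, above the day-1 libraries (61.5 and 55.7). Scap was at 13.1, 14.3, 9.40 and 14.0 CPM at day 4 and at 21.9 and 18.1 at day 1.

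Of the uptake, transfer and esterification genes, Npc1l1 was at 97.8 CPM in the vehicle, 37.9 with the antagonist, 110.1 with retinoic acid and 83.5 in vitamin A-free medium, and at 41.2 and 51.4 at day 1. Soat2, the cholesterol acyltransferase of enterocytes, had the same order of day-4 libraries, with 37.2, 19.2, 59.7 and 30.5 CPM at day 4 and 13.4 and 17.3 at day 1. Both were thus highest with retinoic acid, the library in which the enzymes of synthesis were lowest at day 4 at equal totals. Npc2 and Npc1 encode the proteins that hand cholesterol out of lysosomes. Npc2 was at 517, 439, 348 and 567 CPM at day 4 and at 235 and 248 at day 1. Npc1 was at 7.93, 12.1, 5.56 and 8.23 CPM at day 4 and at 17.5 and 16.6 at day 1. Npc1 was thus higher at day 1 than in each day-4 library, while Npc2 was lower. Stard4, a carrier of sterol between membranes, was at 202, 142, 131 and 203 CPM at day 4 and at 119 and 105 at day 1.

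The day-4 vehicle was then tested against the day-1 vehicle, which asks how the genes change as organoids grow. Of the 29 genes, 25 rose, 1 fell and 3 did not pass the test (edgeR quasi-likelihood test, Benjamini-Hochberg adjusted p under 0.05 over all genes). In this comparison 17.3% of all 17592 genes tested were called higher and 16.9% lower. The median log2 fold change was 1.46 over the 29 genes and -0.03 over all genes tested. In the mevalonate and isoprenoid steps 7 of 8 genes rose, in the squalene and sterol steps 11 of 12, in sterol sensing 3 of 4, and in uptake, transfer and esterification 4 of 5. The day-4 library is alone, and the test assumes that it varies like the day-1 libraries. Those may come from 1 culture, so the p-values may cover technical spread only, and day and medium cannot be told apart.

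Insig1 rose most, from 84.7 ± 7.98 CPM at day 1 (SD, n = 2) to 500.2 CPM, with a log2 fold change of 2.74 ± 0.16 (SE) and an edgeR adjusted p of 0.00077. The 6 enzymes with the largest changes were Fdps (2.28 ± 0.16), Mvd (2.22 ± 0.18), Lss (2.22 ± 0.19), Tm7sf2 (2.11 ± 0.18), Msmo1 (1.93 ± 0.14) and Dhcr7 (1.92 ± 0.14), with edgeR adjusted p-values of 0.0011 to 0.0016. In CPM these were 4.28-fold for Fdps, 4.13-fold for Mvd and for Lss, 3.82-fold for Tm7sf2, 3.38-fold for Msmo1 and 3.34-fold for Dhcr7. Hsd17b7 had the smallest rise among the enzymes that passed (0.53 ± 0.14, edgeR adjusted p = 0.034). The other rises in sensing were small, with 0.65 ± 0.15 for Insig2 (edgeR adjusted p = 0.023) and 0.51 ± 0.15 for Srebf2 (edgeR adjusted p = 0.042). In uptake and esterification, Soat2 (1.46 ± 0.19), Npc2 (1.28 ± 0.14), Npc1l1 (1.26 ± 0.18) and Stard4 (1.03 ± 0.15) rose, with edgeR adjusted p-values of 0.0028 to 0.0059. Npc1 fell by 0.93 ± 0.17 on the log2 scale (edgeR adjusted p = 0.010). Ggps1 (0.44 ± 0.15), Lbr (-0.40 ± 0.20) and Scap (-0.43 ± 0.19) had edgeR adjusted p-values of 0.067, 0.17 and 0.12.

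Cell types differed between the days, so the test was repeated within the 2 clusters with at least 20 cells in every library, an addition made after the data were seen. Cluster 11 was led by the goblet and Paneth cell genes Zg16, Defa24 and Spink4 and held 147 day-4 vehicle cells and 187 and 302 day-1 cells. There 17 of 29 genes rose and 0 fell by the edgeR test (median 1.12), while 4.58% of 9693 genes tested were called higher and 3.59% lower. At an unadjusted p under 0.05, 20 were higher and 1 lower in edgeR. Cluster 13, called enteroendocrine-like from markers such as Chga, Chgb and Cck, held 66 day-4 vehicle cells and 159 and 401 day-1 cells, with medians of 5579, 2612 and 3540 UMIs per cell. In it 17 of 27 genes rose and 0 fell by edgeR (median 1.27), against 3.78% of 7934 genes higher and 3.50% lower, and at an unadjusted p under 0.05 there were 19 higher and 2 lower. The same 15 genes rose in both clusters: Insig1 and 14 enzymes, among them Hmgcs1 (2.00 and 2.59 on the log2 scale in clusters 11 and 13), Fdps (1.63 and 2.65), Lss (2.16 and 2.94) and Msmo1 (1.87 and 2.09). Npc1l1 did not pass the test in either cluster, at 0.20 in cluster 11 and -1.05 in cluster 13, with edgeR adjusted p-values of 0.88 and 0.058. Scap lay at -1.14 and -1.78, with edgeR adjusted p-values of 0.11 and 0.10.

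Cluster 11 still held finer groups of cells in different shares on the 2 days. At a finer clustering (Leiden resolution 1.4), it split into goblet-like cells (95 in the day-4 vehicle, 70 and 48 at day 1), other goblet-like cells led by Ang4 and Defa24 (5, against 116 and 250) and Paneth-like cells (47, against 1 and 4). The test was therefore also made within each finer cluster with at least 20 cells in the vehicle and both day-1 libraries. In the goblet-like one, with 119 vehicle cells and 84 and 75 day-1 cells, 20 of 28 genes rose and 1 fell by edgeR (median 1.02), against 8.59% of 9163 genes higher and 6.65% lower. Insig1 rose there by 2.15 on the log2 scale, Lss by 2.19, Hmgcs1 by 1.92 and Fdps by 1.63, and the gene that fell was Scap (-1.89, edgeR adjusted p = 0.0084). Of cluster 13, 19 vehicle cells and 11 and 24 day-1 cells fell into this goblet-like finer cluster. The enteroendocrine-like cells at the finer clustering formed 2 clusters with 25 and 22 vehicle cells. In the first, led by Chgb and Tac1, 8 of 22 genes rose and 0 fell by edgeR, against 2.47% of 4090 genes higher and 2.30% lower, with 16 higher and 0 lower at an unadjusted p under 0.05. In the second, led by Cck and Gcg, 14 of 26 rose and 1 fell, against 3.24% of 5710 genes higher and 4.48% lower. The gene that fell was Npc1l1 (-1.96, edgeR adjusted p = 0.018), which had risen over all cells.

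**Figure D2:**
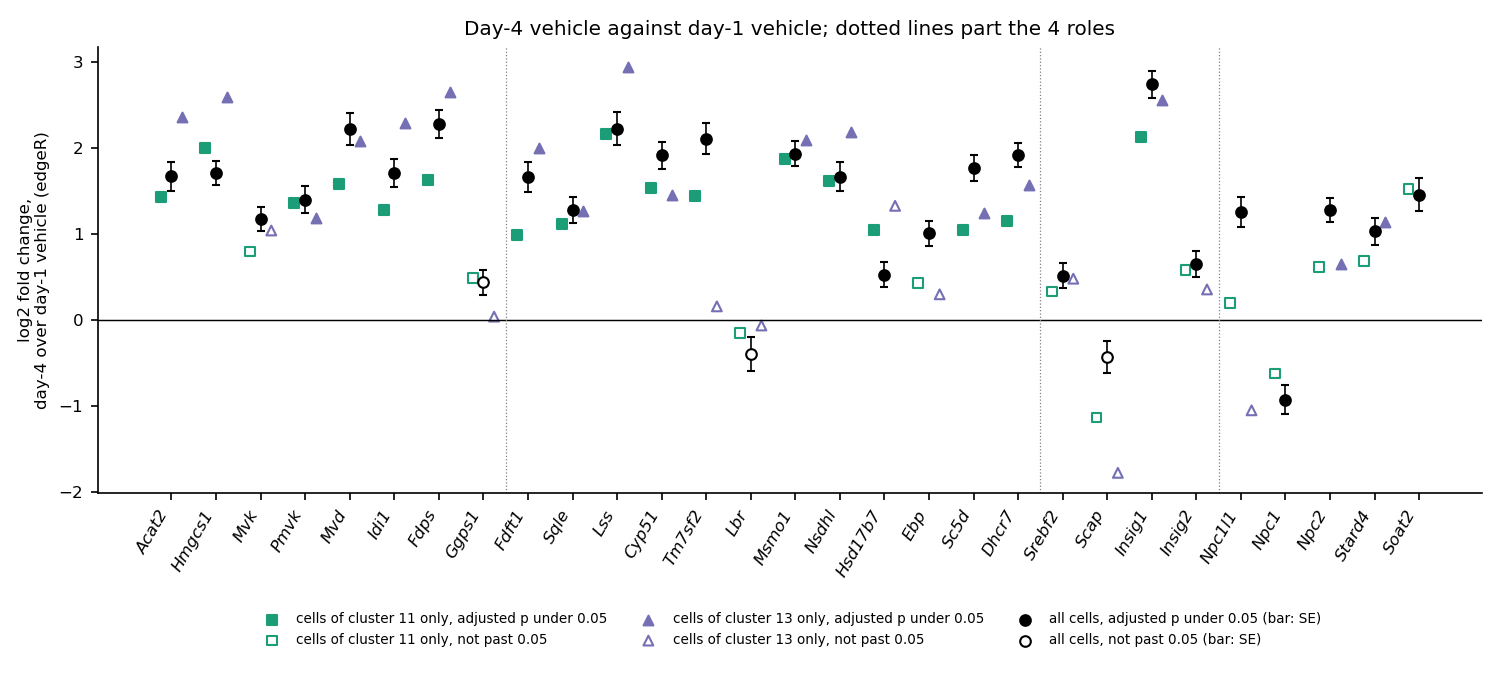
Log2 fold change of each gene in the day-4 vehicle over the day-1 vehicle by edgeR, for all cells (circles, bars are SE), for cells of cluster 11 (squares) and for cells of cluster 13 (triangles). Filled symbols passed an adjusted p of 0.05, and most enzymes and Insig1 lie above 1 in all 3 sets of cells.

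The treatments at day 4 have 1 library each and share the vehicle library. Their values are described by size and were not tested, since a test would rest on the spread of the day-1 libraries alone. A gene was counted where it reached 10 CPM in either library and was called higher or lower at 1.5-fold or more, on the scale log2(CPM + 5), which understates changes of low genes. Intervals are 95% Poisson intervals and cover counting error only. As a measure of library spread, the day-1 libraries gave 0 of 29 genes at 1.5-fold or more in either direction, against 2.18% of 8207 genes higher and 0.0609% lower. The list still moved together between them. In day-1 library 2 against 1, 24 of the 29 genes lay below 0, with a median log2 ratio of -0.14, against -0.02 for all genes.

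With retinoic acid, synthesis genes were lower and Insig2 and Soat2 higher. Of 28 genes at the floor, 2 were higher and 15 lower, against 6.03% of 7976 genes higher and 20.9% lower. The median log2 ratio was -0.63 for the 28 genes and -0.27 for all genes. All of that group of 15 but Srebf2 and Stard4 were enzymes: 6 of 8 mevalonate and isoprenoid genes and 7 of 12 squalene and sterol genes. The 6 enzymes with the largest differences were all lower, Idi1 by 2.41-fold (2.35 to 2.48), Fdft1 by 2.33-fold (2.25 to 2.42), Lbr by 2.25-fold (2.13 to 2.38), Lss by 2.20-fold (2.09 to 2.31), Sqle by 2.18-fold (2.12 to 2.25) and Msmo1 by 2.16-fold (2.12 to 2.20). The other 14 enzymes had log2 ratios from -0.94 to 0.40, with Tm7sf2 the only enzyme above 0. Insig2 was 1.80-fold higher (1.71 to 1.89) and Soat2 1.60-fold higher (1.52 to 1.70). Srebf2 was 1.77-fold lower (1.69 to 1.86), Stard4 1.54-fold lower (1.498 to 1.59), and Insig1 and Npc2 were both 1.48-fold lower. Npc1l1 was 1.13-fold higher (1.08 to 1.17) and Scap 1.395-fold lower (1.25 to 1.56). Npc1 did not reach the floor.

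The count depends on the scaling. In the retinoic acid library the 10 most abundant genes held 17.1% of UMIs, against 9.95% in the vehicle. With edgeR's TMM factors the median of all genes moved to 0.08 and the counts became 3 higher and 6 lower, while 14.2% of all genes were higher and 7.68% lower. With DESeq2's size factors these were 0.12, 4 and 6, 15.9% and 6.77%. The 6 lower genes, Idi1, Fdft1, Sqle, Lss, Lbr and Msmo1, were the same under both, and Tm7sf2 passed 1.5-fold higher under both. Relative to the median of all genes at equal totals, 3 were higher and 7 lower, against 11.1% and 8.80% of all genes. The median of the 28 genes stayed below 0 under each scaling (-0.24 and -0.19 with TMM and DESeq2), whereas that of the 4 uptake, transfer and esterification genes at the floor was -0.20 at equal totals, 0.19 with TMM and 0.23 with DESeq2. Enterocyte markers summed to 100734 CPM with retinoic acid and 35905 in the vehicle, all 9 were above 0 in both libraries, and their part in the result was tested no further than the comparison within cell classes below.

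With the RXR antagonist the genes past 1.5-fold were Insig2, which was higher, and Npc1l1, Soat2 and the enzyme genes Dhcr7 and Lbr, which were lower. Of 29 genes, 1 was higher and 4 lower, against 14.6% of 8387 genes higher and 15.4% lower, and the median log2 ratio was 0.01 for both the 29 genes and all genes. The share of lower genes, 4 of 29, is near the share among all genes. Insig2 was 2.68-fold higher (2.55 to 2.82). Npc1l1 was 2.58-fold lower (2.44 to 2.72) and Soat2 1.94-fold lower (1.79 to 2.11). Stard4 was 1.43-fold lower (1.38 to 1.47), Insig1 1.21-fold lower (1.19 to 1.24) and Npc2 1.18-fold lower (1.16 to 1.20). Npc1 was 1.53-fold higher in CPM (1.34 to 1.74), though at its low level this was 0.40 on the log2 scale used. Srebf2 and Scap lay at -0.08 and 0.09.

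The 6 enzymes farthest from the vehicle with the antagonist were Dhcr7, 1.76-fold lower (1.68 to 1.85), Lbr, 1.71-fold lower (1.62 to 1.81), Sqle, 1.30-fold higher (1.27 to 1.33), Fdps, 1.27-fold higher (1.25 to 1.30), Acat2, 1.25-fold lower (1.21 to 1.28), and Lss, 1.22-fold higher (1.17 to 1.27). The other 14 lay between -0.26 and 0.20 on the log2 scale. In this library the enterocyte markers summed to 5995 CPM against 35905 in the vehicle, with 1 of the 9 at 0, and the regenerative epithelium markers to 4154 against 12.0 CPM, with none of 7 at 0. Their part in the values of Npc1l1, Soat2, Dhcr7 and Insig2 was not tested over replicates.

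In vitamin A-free medium no gene of the 28 at the floor differed from the vehicle by 1.5-fold, where 1.34% of 8180 genes were higher and 1.34% lower. The median log2 ratio was -0.09, against 0.08 for all genes. With TMM factors these were -0.23 and -0.04, and with DESeq2 factors -0.24 and -0.06. The 6 enzymes with the largest differences were Sc5d, 1.31-fold lower (1.28 to 1.35), Lbr, 1.22-fold higher (1.17 to 1.28), and Cyp51 (1.15-fold), Msmo1 (1.15-fold), Pmvk (1.14-fold) and Fdft1 (1.14-fold), all lower. The other 14 lay between -0.17 and 0.01 on the log2 scale. Among the sensing and uptake genes, Soat2 was 1.22-fold lower, Insig1 1.19-fold lower, Npc1l1 1.17-fold lower and Insig2 1.15-fold lower, while Npc2 was 1.096-fold higher. Stard4, Scap and Srebf2 were at 0.01, 0.07 and -0.05, and Npc1 was under the floor.

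**Figure D3:**
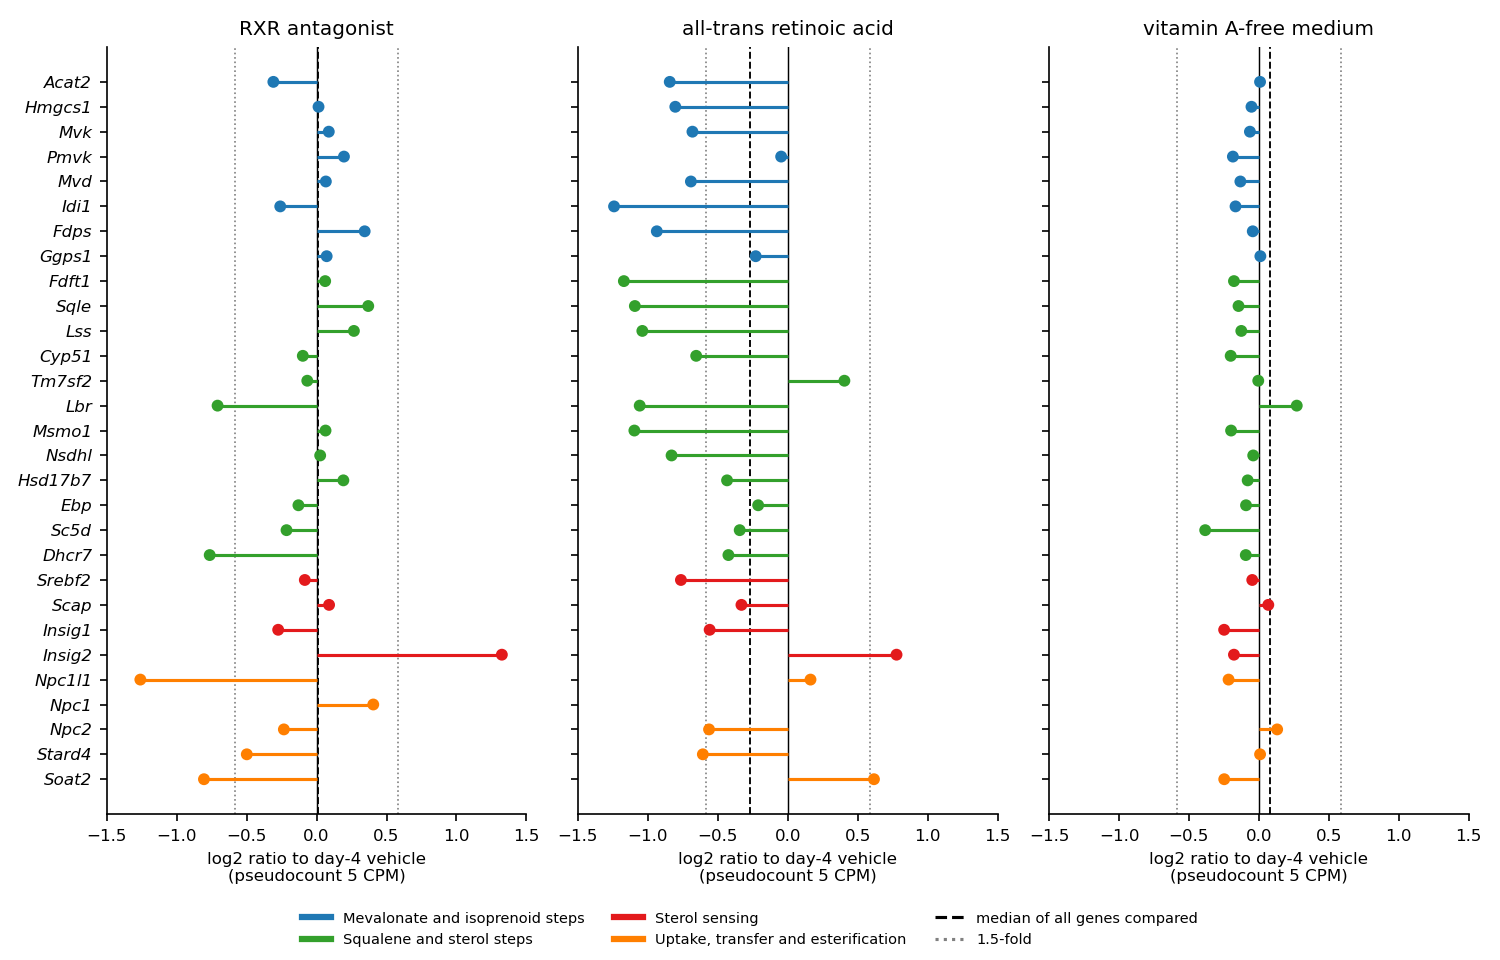
Log2 ratio of each gene to the day-4 vehicle for the 3 treatments, coloured by role, with the median of all genes (dashed) and 1.5-fold lines (dotted). There is 1 library per condition and no error bar. With retinoic acid 15 genes pass the lower line, with the antagonist 4, and with vitamin A-free medium none.

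Cells were then grouped by clustering with the 29 genes and 27 related pathway genes left out. At day 4 the vehicle cells fell mainly into an enterocyte-like cluster (1465 cells), a cluster led by Rbp7 and Clec2e that stayed unnamed and is called cluster 1 (1662 cells), and a stem-like class led by Olfm4 and Lgr5 (1241 cells). The enterocyte-like class was cluster 2 in the vehicle, and with retinoic acid it was clusters 0, 12, 14 and 16 with 9 cells of cluster 2 (4474 cells in all), so the class rests on different clusters in these libraries. Antagonist cells were mostly a regenerative-like cluster led by Ly6d and Ly6g (2134 cells) and the unnamed cluster 10 led by Dmbt1 and Nupr1 (1148 cells), and only 20 were stem-like. Apart from clusters 11 and 13, nearly all day-1 cells lay in clusters of their own, which stayed unnamed. Cells are not replicates, so class values carry no test.

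In each class with cells from both libraries the summed enzyme level was lower with retinoic acid than in the vehicle. In the day-4 vehicle the 20 enzymes summed to 4777 CPM in enterocyte-like cells, 5371 in cluster 1, 4006 in stem-like cells, 4351 in cluster 11 and 3433 in enteroendocrine-like cells. With the antagonist the sums were 4930 CPM in regenerative-like cells, 4445 in cluster 10 and 4812 in cluster 11. With retinoic acid they were 2789.6 CPM in enterocyte-like cells, 3343 in stem-like cells, 3237 in cluster 11 and 2292 in enteroendocrine-like cells. In day-1 clusters of at least 20 cells the sums ran from 883 to 2359 CPM, below those of each named day-4 vehicle class. Among enterocyte-like cells the quartiles of the enzyme level per cell were 3412 and 5707 CPM in the vehicle and 2043 and 3318 with retinoic acid, so these ranges did not overlap. In stem-like cells they were 2752 and 4839 CPM in the vehicle and 2629 and 3918 with retinoic acid.

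**Figure D4:**
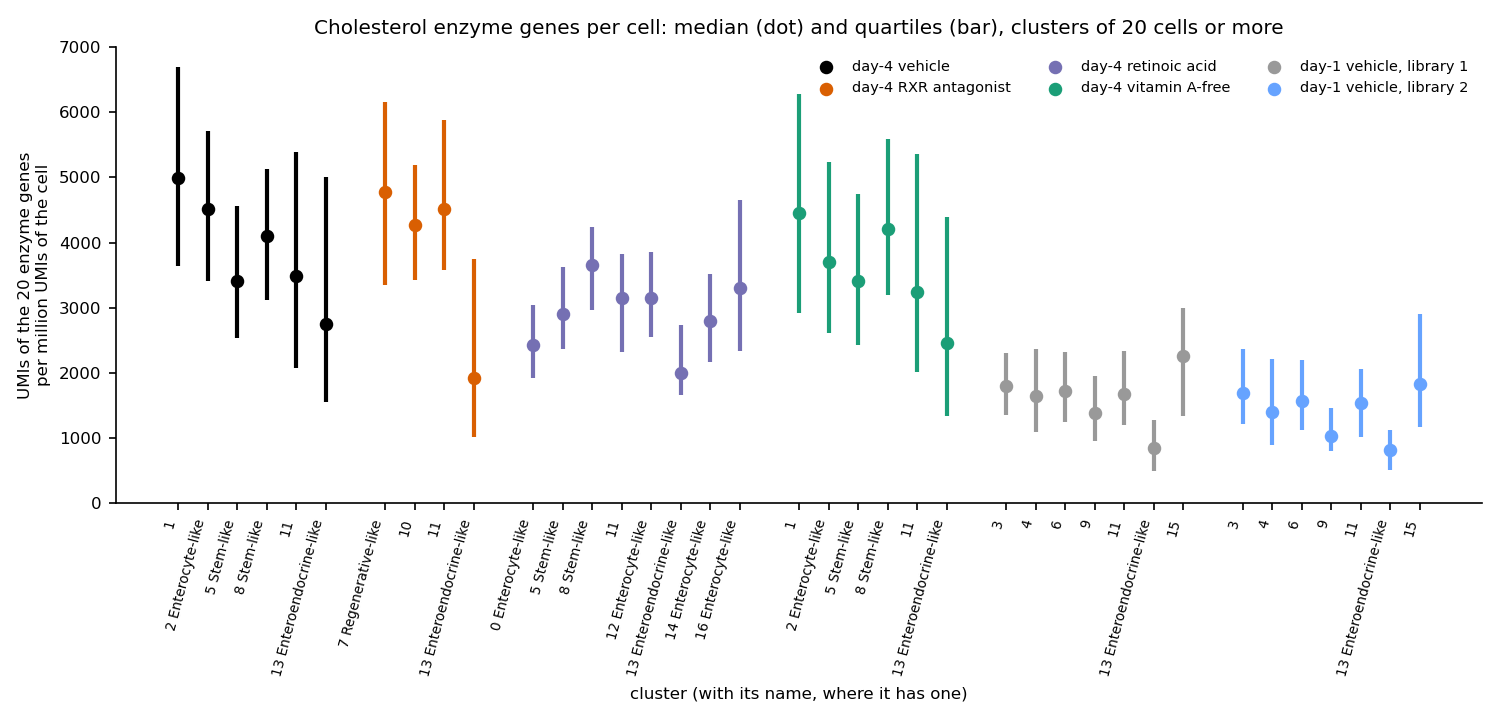
Summed level of the 20 enzyme genes in each cell, as CPM of the cell, by library and cluster of at least 20 cells. Dots are medians over cells and bars run from the lower to the upper quartile, which is spread among cells and not replicate error. The day-1 medians run from 823 to 2265, and the enterocyte-like clusters with retinoic acid lie below that of the vehicle.

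Within enterocyte-like cells, 12 of 20 enzymes were at least 1.5-fold lower with retinoic acid than in the vehicle and 0 higher, against 9.31% of 6991 genes lower and 4.56% higher. The median log2 ratio of the enzymes was -0.75 and that of all genes -0.08. Fdft1 was 2.47-fold lower, Idi1 2.37-fold, Msmo1 2.24-fold, Lss 2.19-fold, Sqle 2.13-fold and Fdps 2.00-fold. Lbr, which was lower with retinoic acid over whole libraries under each scaling, did not pass 1.5-fold in this class. Over all 27 genes at the floor 15 were lower, with Srebf2 at 69.0 and 43.1 CPM, Insig1 at 593 and 360.1 and Stard4 at 209.7 and 129.8 in vehicle and retinoic acid cells beside the enzymes. Insig2 was the 1 gene higher, at 48.6 and 82.5 CPM. Npc1l1 (138 and 123 CPM) and Soat2 (54.5 and 67.0 CPM) were within 1.5-fold in this class.

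Within stem-like cells 0 of 20 enzymes passed 1.5-fold in either direction with retinoic acid, and the median log2 ratio was -0.22 for the enzymes and 0.00 for all genes. Insig1 was the 1 of 28 genes that was lower (282 and 175 CPM), against 2.81% of 8400 genes lower and 1.01% higher. Idi1 was at 360.3 CPM in the vehicle and 256 with retinoic acid, and Msmo1 at 422 and 294. Whether the classes differ in their response was not tested, for want of replicates. In cluster 11, with 100 retinoic acid cells and 147 vehicle cells, 0 enzymes were higher and 4 lower, against 9.18% and 7.65% of 8656 genes. At the finer clustering 19 of these retinoic acid cells and 47 of these vehicle cells were Paneth-like, as were 86 vitamin A-free cells. In enteroendocrine-like cells, with 39 retinoic acid and 66 vehicle cells, 2 enzymes were higher and 9 lower, against 20.4% of 10220 genes in each direction. At the finer clustering 20 of these retinoic acid cells and 19 of these vehicle cells fell among goblet-like cells, as did 32 vitamin A-free cells. This comparison is thus not of enteroendocrine cells alone. In vitamin A-free medium 0 genes of the list passed 1.5-fold in enterocyte-like cells (0.951% of 7047 genes higher and 0.681% lower), stem-like cells (0.594% of 8412 genes higher and 0.333% lower) or cluster 1 (1.01% of 7536 genes higher and 0.637% lower). In its smaller cell sets 1 of 28 was higher and 0 lower in cluster 11 (3.62% and 2.72% of genes), and 1 of 29 was higher and 2 lower in enteroendocrine-like cells (13.1% and 10.7%).

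Classes also differed within the vehicle library. Npc1l1 was at 138 CPM (132 to 143) in enterocyte-like and 27.7 CPM (25.1 to 30.6) in stem-like cells, and Soat2 at 54.5 CPM (51.1 to 58.0) and 13.6 CPM (11.8 to 15.7). Insig1 was at 593 and 282 CPM, Sc5d at 298 and 138, and Cyp51 at 727 and 449, all higher in enterocyte-like cells. In contrast Lbr was at 24.2 CPM in enterocyte-like and 160.2 in stem-like cells, Scap at 7.23 and 22.3, and Acat2 at 164 and 256. In all, 6 of 28 genes passed 1.5-fold toward enterocyte-like cells and 3 toward stem-like cells, against 15.6% of 8712 genes higher and 47.4% lower. The median of all genes was -0.52 here, and relative to it 17 genes were higher in enterocyte-like cells and 2 lower, against 28.2% and 27.8% of all genes.

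With the antagonist, Insig2 was at 138 CPM (134 to 142) in regenerative-like cells, 71.2 in cluster 10 and 76.4 (62.1 to 93.1) in cluster 11, against 43.7 (32.7 to 57.1) in cluster 11 of the vehicle. Npc1l1 was at 32.0 CPM in regenerative-like cells and 52.9 in cluster 10, above the 27.7 of vehicle stem-like cells and below the 138 of vehicle enterocyte-like cells. Soat2 was at 19.6 and 19.7 CPM in these antagonist clusters. Dhcr7 was at 40.1 CPM in regenerative-like cells, 77.5 in cluster 10 and 107 in cluster 11, where the vehicle had 74.2. In cluster 11, 47 of the vehicle cells and 0 of the antagonist cells were Paneth-like at the finer clustering. Its values therefore compare different mixtures of cells.

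**Figure D5:**
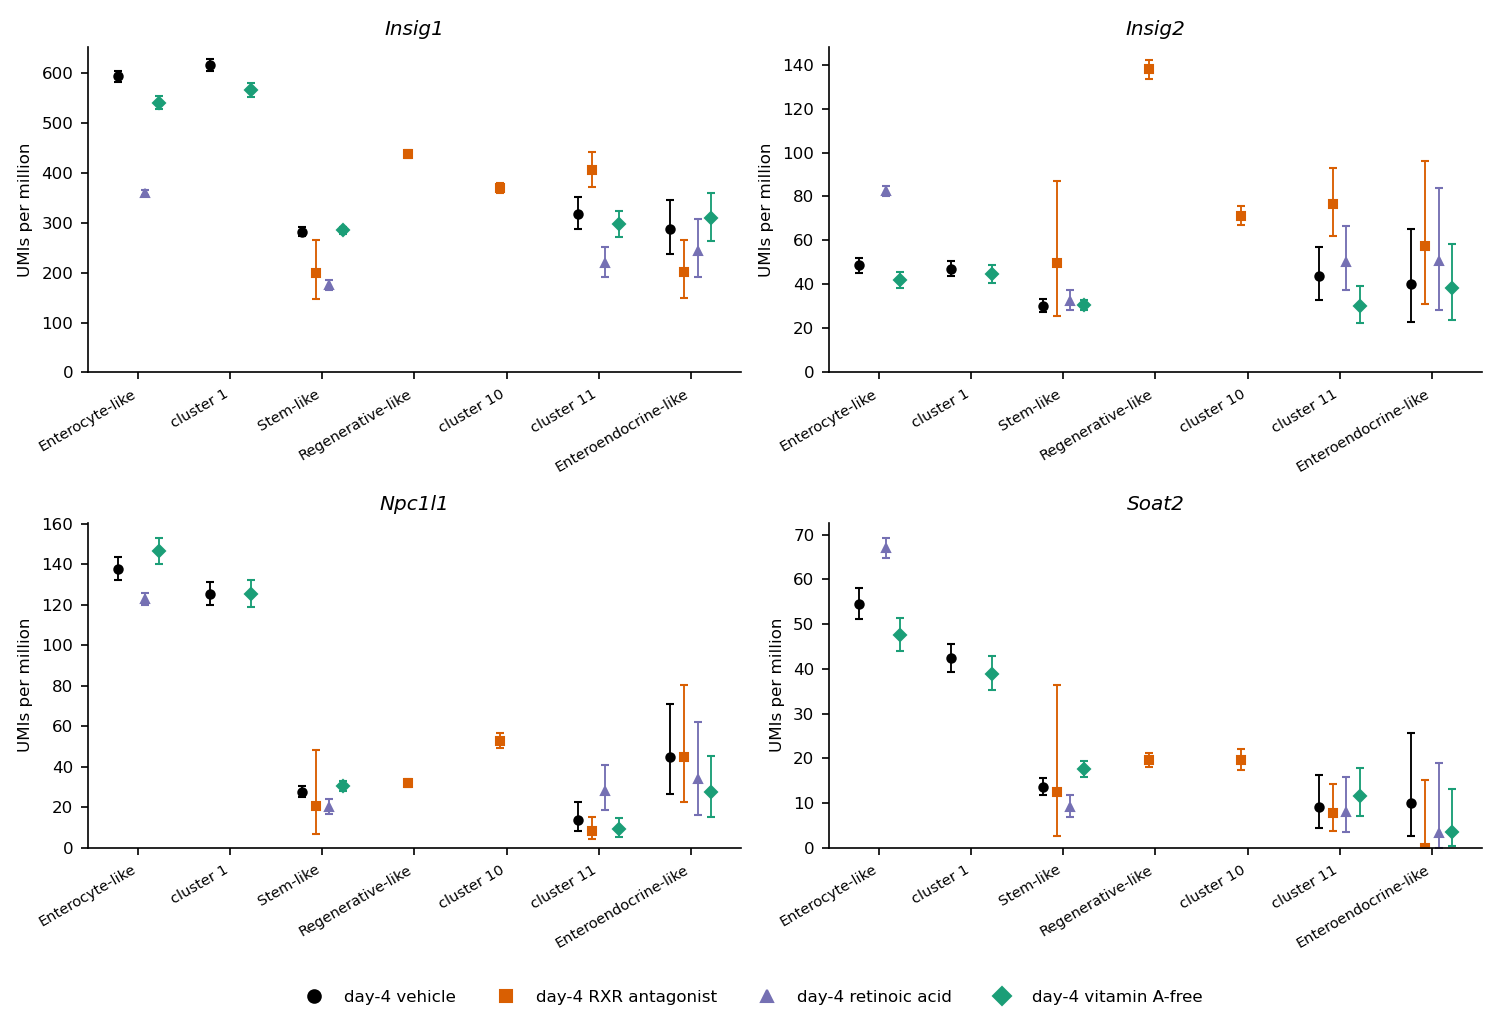
Level of Insig1, Insig2, Npc1l1 and Soat2 in each day-4 library by cell class or cluster, as CPM with 95% Poisson intervals, which cover counting error only. In the vehicle, Npc1l1 and Soat2 are highest in enterocyte-like cells and cluster 1. Insig2 reaches 138 in the regenerative-like cells of the antagonist library.

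Of the 27 related genes, 3 supply acetyl-CoA and acetoacetyl-CoA to the pathway. Acss2, which makes acetyl-CoA from acetate, was at 92.5, 98.1, 38.7 and 77.4 CPM in the vehicle, antagonist, retinoic acid and vitamin A-free libraries and at 13.9 and 11.1 at day 1. Acss2 rose at day 4 by 3.07 ± 0.18 on the log2 scale (edgeR adjusted p = 0.00077), and with Acly and Aacs all 3 rose. In that comparison of the days 17.3% of all genes were called higher and 16.9% lower. With retinoic acid the 3 supply genes were lower by 1.5-fold or more at equal totals, Acss2 and Acly with log2 ratios of -1.16 and -1.09. With TMM or DESeq2 factors 2 of the 3 were lower. Of all genes, 20.9% were lower at equal totals, 7.68% with TMM and 6.77% with DESeq2 factors.

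The genes of sterol export, storage and transfer changed in both directions. Between the days 4 of 12 rose and 3 fell by edgeR, against 17.3% of all genes higher and 16.9% lower. Those changed by at least 2-fold were Scarb1, the HDL receptor (-2.26 ± 0.17), Soat1 (-1.07 ± 0.16), Nceh1, a cholesteryl ester hydrolase (-1.12 ± 0.17), Abcg8 (1.25 ± 0.25) and Abcg5 (1.08 ± 0.28), which form the sterol exporter of the brush border, and Abca1 (1.22 ± 0.36), with edgeR adjusted p-values of 0.0011 to 0.045. Abca1 stood at only 1.68 CPM in the day-4 vehicle. With retinoic acid 3 of 8 at the floor were higher and 0 lower at equal totals (6.03% and 20.9% of all genes). Abcg8 and Nceh1 passed 2-fold there, at log2 ratios of 1.25 and 1.10. With TMM or DESeq2 factors 4 were higher, Nr1h3 being the addition, and 0 lower. Of all genes, 14.2% were then higher and 7.68% lower with TMM factors, and 15.9% and 6.77% with DESeq2 factors. With the antagonist 1 of 9 was higher and 3 lower at equal totals (14.6% and 15.4% of all genes). With TMM or DESeq2 factors 3 were higher, Soat1, Nceh1 and Stard5, and 3 lower. These stand beside 16.3% of all genes higher and 14.5% lower with TMM factors, and 16.5% and 14.3% with DESeq2 factors. The 3 lower were Abcg5 at 141 CPM in the vehicle and 5.61 with the antagonist, Abcg8 at 104 and 5.25, and Nr1h3, the gene of a sterol receptor that pairs with RXR, at 28.2 and 2.84. In vitamin A-free medium 2 of 9 were higher (1.34% of all genes), and Scarb1 passed 2-fold, at 80.0 CPM against 7.49 in the vehicle. Scarb1 at day 1 was at 40.8 and 40.6 CPM.

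Of Mbtps1 and Mbtps2, the proteases that release SREBP proteins, and Srebf1, the gene of a related SREBP, 1 of 3 rose between the days, which was Srebf1. At equal totals Mbtps1 and Srebf1 were lower with the antagonist (-0.62 and -0.60 on the log2 scale), and with TMM or DESeq2 factors 0 of 3 passed 1.5-fold. Of all genes, 15.4% were lower with the antagonist at equal totals, 14.5% with TMM and 14.3% with DESeq2 factors. With retinoic acid 1 of 3 was higher (6.03% of all genes). In vitamin A-free medium 0 of 3 passed 1.5-fold (1.34% of all genes in each direction). Of the 9 genes that use isoprenoids, 1 rose and 1 fell between the days by edgeR. These counts stand beside 17.3% of all genes higher and 16.9% lower. Pdss1, which builds the side chain of coenzyme Q, was at 168, 48.8, 62.9 and 204 CPM in the vehicle, antagonist, retinoic acid and vitamin A-free libraries and at 87.0 and 80.0 at day 1. Pdss1 rose by 1.19 ± 0.15 from day 1 (edgeR adjusted p = 0.0036), and its log2 ratios to the vehicle were -1.69 with the antagonist and -1.35 with retinoic acid.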

How the data were processed

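The labels' protocols describe cells freed with TrypLE, cleared of debris and dead cells by sorting, and captured with the 10x Genomics 3′ kit version 2 chemistry. The submitters' processing notes name the GRCm38 build, Cell Ranger 3.1.0 and bcl2fastq 2.17. The authors deposited UMI counts per gene and cell barcode, raw and not normalized. Every barcode had at least 1001 detected genes and under 10.0% mitochondrial UMIs, so minimums of 500 genes and 1000 UMIs and a 20% limit removed 0 barcodes. The highest-scoring barcodes of a simulated-doublet score, 0.8% per 1000 barcodes, were removed as likely doublets (2.86% to 4.47% per library). The counts of the remaining cells were summed per library and divided by the library total to give CPM.

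The members and the lists of related genes and markers were chosen with earlier results of these data known. The day-4 conditions have 1 library each and were compared by size only, at 1.5-fold with a pseudocount of 5 CPM and a floor of 10 CPM. Day 4 was tested against day 1 with edgeR 4.0.16 (TMM, quasi-likelihood F-test, Benjamini-Hochberg), and DESeq2 1.42.0 was an alternative. The SE of each log2 fold change was worked out from the edgeR F statistic, and does not measure spread among day-4 vehicle cultures. A list is described by its counts and median beside those of all genes tested. On simulated data for this comparison (3 sets, 17342 genes tested, 200 changed), the share called by edgeR was 36% at a 2-fold change and 98.7% at a 4-fold change, and 4 unchanged genes were called on average. The real comparison called many more genes than were changed in these simulated sets, so these shares need not hold there. Cells were clustered with scanpy 1.11.5 (2000 variable genes, 30 components, 15 neighbours, Leiden resolution 1.0) without the genes described here, and clusters were named from fixed markers. Values were printed in every library for the 9 sensing and uptake genes and for the 6 enzymes with the largest difference in each comparison. The remaining enzymes are given by range. Poisson intervals cover counting error only.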

Additional observations from a re-analysis of the deposited data

How the results depend on the processing

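For the 29 genes over whole libraries, no day-4 treatment difference of 1.5-fold or more changed direction under the scalings, pseudocount, floors, doublet treatment and cell weighting tried. Related genes were tried under the scalings only, and class values under other clusterings and with all barcodes only. Counts for retinoic acid depended on the scaling: the number of lower genes was 15 at equal totals, 7 relative to the median of all genes, 6 with TMM factors, and 6 by DESeq2's size factors, where 4 were higher. The median log2 ratio moved from -0.63 to -0.24 with TMM and -0.19 with DESeq2 factors. In vitamin A-free medium it moved from -0.09 to -0.23 and -0.24. Between the days, 25 genes higher and 1 lower were called by edgeR, by DESeq2, with DESeq2 size factors and with all barcodes, and 22 and 1 with no filter beyond 1 UMI, where more genes were tested and the adjusted p-values of 3 genes no longer passed. Within clusters 11 and 13, 0 genes were called lower by edgeR, with 1 and 2 lower at an unadjusted p under 0.05. Within the finer enteroendocrine-like clusters, where fewer cells and genes were tested, 8 and 14 genes were called higher, and 0 and 1 lower. Relative to the median of all genes, 17 genes in place of 6 were higher in enterocyte-like than in stem-like vehicle cells. By CPM ratio at 1.5-fold, 22 genes were higher and 1 lower with both day-1 libraries. Leaving out either day-1 library gave 22 genes higher and 1 to 2 lower (2 without day-1 library 2). The median log2 ratio was 1.18 with both and 1.20 to 1.28 with 1 left out. For all genes it was -0.18 with both and -0.19 to -0.17 with 1 left out. Within enterocyte-like cells 12 to 13 enzymes were lower with retinoic acid at Leiden resolutions of 0.6 to 1.4 and with all barcodes, and 0 in stem-like cells. The relative counts, the scaled library levels and the tests within clusters were added after the data were seen. No paired analysis was made because the labels do not say how the 2 mice were spread over the libraries. With 1 library per treatment, differences among cultures were not measured.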
